A study of Mus musculus with 24 samples.

Results

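Plasma cells are the antibody-secreting end stage of the B cell lineage. Genes known from these cells, together with the heavy chain gene of immunoglobulin A (Igha), were followed here in splenic CD11c+ dendritic cells (DCs) of neonatal BALB/c mice. The members were Igha, Igkv15-103, Jchain, Xbp1, Sdc1, Prdm1, Mzb1, Pou2af1 and Tnfrsf17, and a probe set belonged to them when its single gene symbol in the platform annotation was one of these names. Of the 9 genes, 8 had such a probe set, and together they had 16 of the 22626 probe sets tested, which carry 12393 gene symbols. Mzb1 was not analysed here. The list was chosen with values of these same arrays in view, and which values chose which gene is not recorded. Igha and Igkv15-103, the members with the largest changes, were taken as chosen by those changes, so their levels and fold changes are given as a description with no test. The other genes are known plasma cell genes, and their differences were tested in a fit across all probe sets, but they too may have been chosen for their values, so their p-values are not independent evidence.

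The 24 arrays (Affymetrix Mouse430A 2.0) came from 6 groups of BALB/c pups. Asthma-at-risk pups, called at-risk here, were offspring of females that had been sensitised to ovalbumin (OVA), exposed to OVA aerosol and mated with normal males, and pups of control mothers are called normal. A single intraperitoneal injection, of OVA (5 µg) in alum (1 mg), had been given to stimulated pups at day 3 by the labels (day 4 in the methods) whereas naïve pups had received no allergen, and spleens were taken at day 14 by the methods. Set 2 held stimulated at-risk (n = 5) and stimulated normal (n = 4) pups, with RNA amplified by a NuGEN kit. Set 1 held stimulated at-risk (n = 4), stimulated normal (n = 4), naïve at-risk (n = 4) and naïve normal (n = 3) pups. Stimulated over naïve is also called the change with allergen below. No group was given alum alone, and the naïve arrays of Set 1 have lower array numbers than the stimulated ones. Allergen, alum, injection and array order thus cannot be told apart. In every at-risk over normal comparison within a set, the normal arrays have lower array numbers than the at-risk arrays. Maternal status and array order thus cannot be told apart either. DCs were isolated with magnetic beads, so each array reads a mixed population in which fewer cells of a type and less RNA per cell cannot be told apart. The paper's methods report flow cytometry in which the large majority of purified cells were positive for both CD11c and MHC class II. How many pups stand behind each array is not stated, and p-values measure the spread between arrays. Because the 2 sets were normalised separately and only 1 was amplified, levels are compared within a set. Groups are called separate when their arrays do not overlap, in either direction. At-risk over normal, 10.1% of all probe sets were separate in Set 2. The share was 6.23% in stimulated pups of Set 1 and 11.1% in naïve pups. Stimulated over naïve, it was 21.9% in normal pups and 17.7% in at-risk pups. Array names (AF76 to AF127) are those of the labels.

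In a plasma cell, Prdm1 (the repressor Blimp-1) shuts off the B cell programme, and Xbp1, a transcription factor of the unfolded protein response, enlarges the secretory pathway. Jchain encodes the small chain that joins IgA into dimers and IgM into pentamers, which the receptor encoded by Pigr carries across epithelia. Sdc1 (CD138) and Tnfrsf17 (the receptor BCMA) sit on the plasma cell surface, and Pou2af1 is a coactivator of octamer-binding factors in B lineage cells. Several of these genes are also active elsewhere: Prdm1 in T cells, NK cells and macrophages, and Xbp1 in many secretory cells and in DCs.

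Levels of genes that mark DCs were read first. Itgax, which encodes CD11c, lay between 12.63 and 13.10 log2 units of signal over the 24 arrays, Cd74 between 14.22 and 14.37 and H2-Aa between 13.84 and 14.14, and the spread of Itgax was 1.39-fold. Other DC genes varied more. Flt3 lay between 10.96 and 11.81, a 1.79-fold spread, and Zbtb46 between 10.58 and 11.99, a 2.66-fold spread. B cell markers were also bright, with Cd79a between 11.03 and 12.65 and Ms4a1 (CD20) between 11.33 and 12.62. The levels above therefore do not establish DC identity on their own. These ranges also pool 2 sets that were normalised separately. Flt3 lay between 11.54 and 11.81 in Set 1 and between 10.96 and 11.42 in Set 2. Cd79a lay between 11.03 and 11.47 in Set 1 and between 12.07 and 12.65 in Set 2. Array medians lay between 272 and 298 units of linear signal. One naïve normal array, AF79, stood apart in immunoglobulin probe sets described further on, and results that rest on it are also given without it.

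RefSeq windows of the 250 bases before the transcription start (build GRCm38.p6) are shown for Jchain and Prdm1, the members other than Igha and Igkv15-103 that passed the threshold in at least 1 comparison, and for Pou2af1, a B lineage gene that passed it in none. Capitals mark matches, on either strand, to 4 motifs: the octamer ATGCAAAT, the unfolded protein response core TGACGTG, the Blimp-1 core GAAAGTG, and CCACG, a short part of the endoplasmic reticulum stress element. Each window reads along the gene's own strand and ends at the base before the start.
Prdm1 (chr10:44458749-44458998, minus strand): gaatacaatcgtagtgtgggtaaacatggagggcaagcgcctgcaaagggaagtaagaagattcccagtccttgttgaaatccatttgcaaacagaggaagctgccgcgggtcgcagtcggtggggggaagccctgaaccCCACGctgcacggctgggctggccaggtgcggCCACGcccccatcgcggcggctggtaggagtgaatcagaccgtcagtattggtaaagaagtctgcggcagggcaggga
Jchain (chr5:88527898-88528147, minus strand): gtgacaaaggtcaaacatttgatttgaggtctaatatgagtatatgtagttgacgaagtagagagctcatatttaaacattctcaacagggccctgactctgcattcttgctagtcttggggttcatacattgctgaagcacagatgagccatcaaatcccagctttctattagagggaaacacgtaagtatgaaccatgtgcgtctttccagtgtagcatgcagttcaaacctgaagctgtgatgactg
Pou2af1 (chr9:51213440-51213689, plus strand): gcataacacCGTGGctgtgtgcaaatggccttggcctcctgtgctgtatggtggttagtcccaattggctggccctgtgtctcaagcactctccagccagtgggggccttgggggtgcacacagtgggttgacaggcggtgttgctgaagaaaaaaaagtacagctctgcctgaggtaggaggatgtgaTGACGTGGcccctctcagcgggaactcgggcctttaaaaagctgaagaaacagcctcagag
The Prdm1 window held CCACG at 2 positions, beginning 110 and 78 bases before the start. The Pou2af1 window held TGACGTG 61 bases before the start, overlapped by a reverse CCACG match at 58, and a second reverse match at 241. The Jchain window held none of the 4 letter strings. Of the 32851 RefSeq windows of the same length, 28.3% held CCACG, 1.65% TGACGTG, 4.01% GAAAGTG and 1.6% the octamer. These matches are a description of letters and show no binding.

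Igha varied more than any other member, and its order of groups differed between the sets. In Set 2, probe set 1421653_a_at read 9.17, 8.54, 7.37, 7.46 and 7.85 on the stimulated at-risk arrays, against 10.27, 10.35, 10.75 and 10.56 on the stimulated normal arrays. All 5 at-risk arrays were below all 4 normal arrays, where 10.1% of all probe sets were separate. The means were 8.08 ± 0.77 and 10.48 ± 0.22 (SD), a log2 fold change of -2.41. In Set 1 the stimulated at-risk arrays split, at 6.32, 7.60, 9.77 and 10.03, whereas the stimulated normal arrays were uniformly low at 7.49, 7.25, 7.10 and 6.76. Arrays AF90 and AF91 were the pair near 10, AF88 was below every normal array, and the difference of the means was 1.28 on the log2 scale. It was 1.98 without AF88, 0.83 without AF90 and 0.74 without AF91. The mean difference between at-risk and normal pups thus had opposite signs in the 2 sets, with overlapping arrays in Set 1, and the difference of the effects, Set 2 minus Set 1, was -3.68 on the log2 scale. Over both sets, with set as a term, the log2 fold change was -0.66. It was -0.996 without AF90, -1.03 without AF91 and -0.46 without AF120.

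In naïve pups Igha was high in both groups. The at-risk arrays read 10.79, 9.82, 10.98 and 9.76, against 11.17, 9.50 and 10.88 on the normal arrays, so the groups overlapped throughout and the log2 fold change was -0.18, which changed sign with the array left out (-0.69 without AF77 and 0.15 without AF76). Against these naïve levels, Igha in stimulated normal pups was lower by a log2 fold change of -3.36, with every stimulated array below every naïve array. In at-risk pups the log2 fold change was -1.90 (-1.20 without AF88 and -2.44 without AF91), and the stimulated arrays AF90 and AF91 lay inside the naïve range. Within Set 1 the group means ran 7.15 ± 0.31 (stimulated normal), 8.43 ± 1.78 (stimulated at-risk), 10.34 ± 0.64 (naïve at-risk) and 10.52 ± 0.90 (naïve normal) (SD), and neighbours in that order overlapped in their arrays. The lowest and highest of the 24 arrays were 29-fold apart on this probe set.

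**Figure D1:**
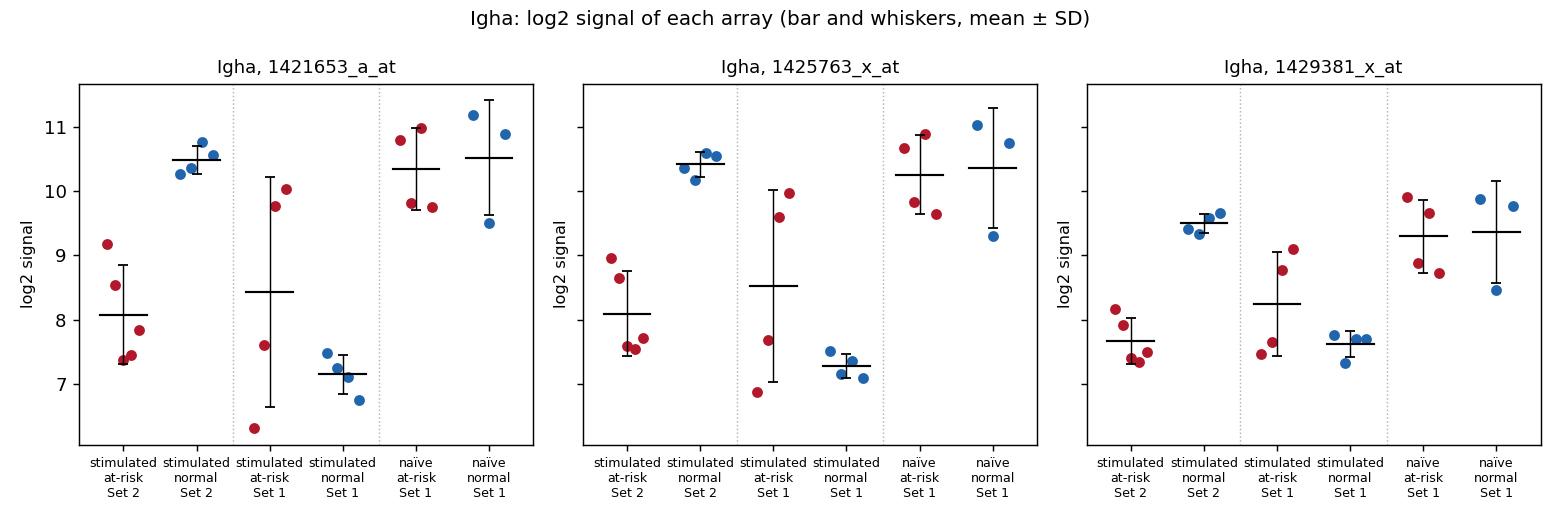
Log2 signal (y axis) of the 3 Igha probe sets on each array, by group along the x axis, with points for arrays and a bar with whiskers for the mean ± SD. At-risk arrays are red and normal arrays blue. In Set 2 the stimulated at-risk arrays lie below the normal arrays, while in Set 1 the stimulated at-risk arrays spread from 6.32 to 10.03 on 1421653_a_at and the normal arrays stay at or below 7.49.

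The other probe sets of Igha, 1425763_x_at and 1429381_x_at, gave the same order, with smaller changes within each set. On 1425763_x_at the stimulated at-risk arrays of Set 2 read 8.96, 8.65, 7.60, 7.55 and 7.72, against 10.35, 10.17, 10.59 and 10.54 on the normal arrays. In Set 1 the same probe set read 6.87, 7.69, 9.59 and 9.98 in stimulated at-risk pups, against 7.51, 7.16, 7.35 and 7.10 in stimulated normal pups. AF90 and AF91 again stood above the rest of Set 1's stimulated arrays. The log2 fold changes of the 2 probe sets in Set 2 were -2.32 and -1.83, and those of stimulated over naïve normal pups were -3.07 and -1.74. Both carry the suffix x, which Affymetrix uses for probe sets whose probes may match other transcripts, so cross-hybridisation with other heavy chain transcripts cannot be told apart from Igha signal on them.

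Igkv15-103, a variable segment of the kappa light chain, followed another pattern. On probe set 1427837_at the naïve at-risk arrays read 8.79, 8.33, 8.73 and 9.08, against 9.67, 10.70 and 10.16 on the naïve normal arrays. All 4 at-risk arrays were lower, where 11.1% of all probe sets were separate. The means were 8.73 ± 0.31 and 10.18 ± 0.52 (SD), with a log2 fold change of -1.45. In stimulated pups of Set 1 the at-risk arrays were at 8.47, 8.71, 8.39 and 8.73, and the normal arrays at 8.50, 8.58, 7.80 and 9.13. There the groups overlapped, the log2 fold change was 0.07, and both groups sat near the naïve at-risk level. Stimulated over naïve, the log2 fold change was -0.16 in at-risk pups and -1.68 in normal pups. In Set 2 the at-risk arrays read 9.74 to 10.32 and the normal arrays 10.19 to 10.49, with 1 at-risk array inside the normal range and a log2 fold change of -0.29.

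The 12 probe sets of the 6 other genes were tested with limma's moderated statistics on log2 values. A probe set was called when the Benjamini-Hochberg adjusted p over all 22626 probe sets was at most 0.05 and the signal at least 25% higher in one group than in the other. Stimulated over naïve, 2 of the 12 were called lower in normal pups, where 11.5% of all probe sets were called, and 1 of 12 was called lower in at-risk pups, where 7.88% were called. At-risk over normal, none of the 12 was called in stimulated pups of Set 2 (background 4.62%), of Set 1 (0.0707%) or of both sets (1.73%), or in naïve pups (0.34%). At an unadjusted p under 0.05 these counts were 5, 4, 5 and 5 of 12, where 21.9%, 7.31%, 17% and 15.8% of all probe sets had such a p. Xbp1 and Sdc1 have several probe sets each, so the 12 are not independent. With 1 probe set a gene the counts were 3, 2, 3 and 3 of 6. Among these, Pou2af1 was higher in at-risk pups in Set 1 and over both sets. Of the differences between effects, 1 of 12 was called lower between Set 2 and Set 1 (1.79%) and none between stimulated and naïve pups (0.0486%). At an unadjusted p under 0.05 these were 5 and 3 of 12, beside 16.3% and 8.41% of all probe sets. With 1 probe set a gene they were 3 and 2 of 6.

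With Igha and Igkv15-103 counted too, calls among the 16 probe sets were 3 lower in Set 2, 1 lower in naïve pups, 6 lower in stimulated over naïve normal pups, 1 lower in at-risk pups and 4 lower in the difference between sets, and nothing is read from these counts because those genes were chosen from these arrays. No member probe set was called higher in any of the 8 comparisons, which share arrays with one another and are not independent. Over the 6 other genes, with 1 probe set each, the median log2 fold change was -0.20 in stimulated over naïve normal pups and -0.04 in at-risk pups, beside 0.00 and -0.01 over all probe sets. At-risk over normal, it was -0.07 in Set 2, 0.03 in Set 1 and -0.06 over both sets of stimulated pups, and -0.10 in naïve pups, each beside a median of all probe sets within 0.01 of 0.

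**Figure D2:**
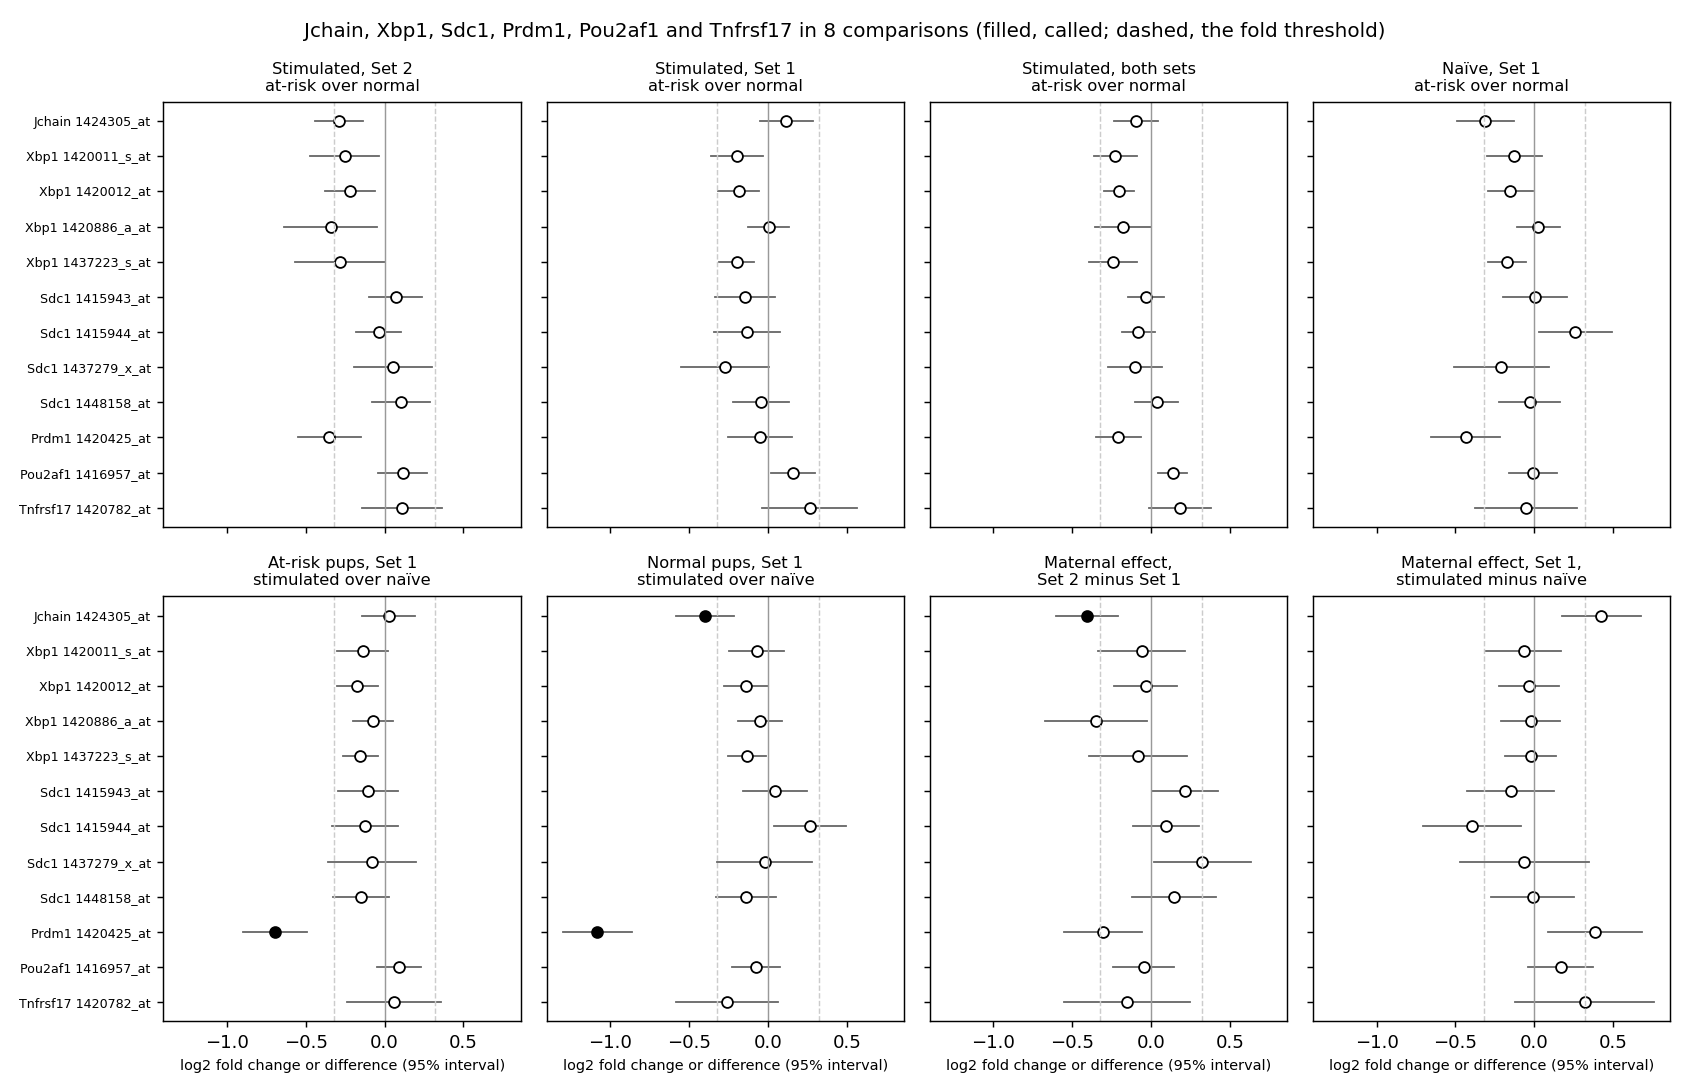
Log2 fold changes (x axis, with 95% intervals) of the 12 probe sets of Jchain, Xbp1, Sdc1, Prdm1, Pou2af1 and Tnfrsf17 (y axis) in the 8 comparisons. Filled points passed the threshold, and dashed lines mark the fold threshold. Prdm1 is filled in both allergen comparisons, at -0.69 and -1.08, and Jchain in normal pups at -0.40 and in the difference between sets at -0.41.

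Prdm1 was lower in stimulated than in naïve pups of both kinds. In at-risk pups the stimulated arrays of Set 1 read 7.80, 7.90, 8.04 and 7.99, against 8.64, 8.59, 8.54 and 8.73 on the naïve arrays. In normal pups the stimulated arrays read 8.11, 7.98, 7.89 and 7.94, against 8.87, 8.97 and 9.35 on the naïve arrays. The ranges did not overlap in either case, where 17.7% (at-risk) and 21.9% (normal) of all probe sets were separate. The stimulated groups of both kinds of pups came to the same narrow range of 7.80 to 8.11. The log2 fold change was -0.69 in at-risk pups (SE 0.09, adjusted p = 0.000186) and -1.08 in normal pups (SE 0.10, adjusted p = 7.54e-06). The difference of the effects was 0.39 (SE 0.14, adjusted p = 0.456) and did not pass the threshold. Leaving out AF79, the highest naïve normal array, gave -0.94 in normal pups (adjusted p = 1.13e-05).

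Markers of other cell types that express Prdm1 moved in the same comparisons, where 7.88% (at-risk) and 11.5% (normal) of all probe sets were called. Of 10 T cell genes measured, 8 were called lower with allergen in at-risk pups and 10 in normal pups, Cd28 among them at -0.87 and -0.92. Of 8 NK cell genes, 6 were called lower in each kind of pups, with Eomes at -1.16 and -1.70. Of 14 macrophage genes, 5 and 8 were called lower, with Cd5l at -1.18 and -1.67. The mean log2 signal of the T cell genes was 8.67 to 8.83 in stimulated at-risk pups and 9.59 to 9.66 in naïve at-risk pups, and 8.42 to 9.62 in stimulated normal pups and 9.95 to 10.05 in naïve normal pups. Platelet genes rose in the same comparisons, 12 of 12 in at-risk and 10 of 12 in normal pups, and none of the 12 was called lower. Of 11 erythroid genes, 10 were called higher in each kind of pups and none lower. Of 13 endothelial genes, 7 were called higher and 1 lower in at-risk pups, and 1 higher and 1 lower in normal pups. In normal pups 8 of 13 neutrophil genes were called lower and 1 higher, and of 18 conventional DC genes 4 were called higher (Zbtb46, Tlr3, Itgae and Xcr1) and 1 lower (Ccr7). In at-risk pups 3 neutrophil genes were called higher and no conventional DC gene was called. Of 10 plasmacytoid DC genes, 4 were called lower in each kind of pups and none higher, with Klk1 at -0.71 (at-risk) and -0.56 (normal). The part of these populations in the Prdm1 values was not tested.

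At-risk over normal, Prdm1 was lower in naïve pups and in Set 2 without passing the threshold. In naïve pups all 4 at-risk arrays were below the 3 normal arrays, where 11.1% of all probe sets were separate. The log2 fold change was -0.43 (SE 0.10, adjusted p = 0.0814). Without AF79 it was -0.29 (adjusted p = 0.214), and without AF76 it was -0.53 and passed (adjusted p = 0.0462). In Set 2 the stimulated at-risk arrays read 7.74, 8.13, 8.19, 7.95 and 7.92, against 8.36, 8.36, 8.31 and 8.31 on the normal arrays. The groups were separate, as were those of 10.1% of all probe sets. The log2 fold change was -0.35 (SE 0.09, adjusted p = 0.0536), which lay just outside the threshold. Without AF125, the highest at-risk array, the value was -0.40 and passed (adjusted p = 0.0233). No other fit that left out 1 array called Prdm1 at-risk over normal, apart from that of naïve pups without AF76. In Set 1 the stimulated groups differed by -0.05 (SE 0.09, adjusted p = 0.984).

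Jchain was bright on all arrays and moved within a narrow range of 12.13 to 12.74. In stimulated normal pups of Set 1 the arrays read 12.14, 12.13, 12.18 and 12.22, against 12.46, 12.50 and 12.74 in naïve normal pups. Every stimulated array was lower, where 21.9% of all probe sets were separate. The log2 fold change was -0.40 (SE 0.09, adjusted p = 0.00547). Without AF79 it was -0.31 with an adjusted p of 0.0206, under the fold threshold, so the call rests on that array. In at-risk pups the stimulated arrays read 12.32, 12.14, 12.27 and 12.41 and the naïve arrays 12.27, 12.14, 12.21 and 12.41. These groups overlapped throughout, with a log2 fold change of 0.03 (interval -0.14 to 0.20).

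At-risk over normal, Jchain in Set 2 read 12.26, 12.20, 12.40, 12.46 and 12.44 on the at-risk arrays and 12.62, 12.69, 12.65 and 12.61 on the normal arrays. All at-risk arrays were lower, where 10.1% of all probe sets were separate. The difference was -0.29 log2 units (SE 0.07, adjusted p = 0.0416), which is under the fold threshold. In Set 1 the stimulated groups differed by 0.12 (SE 0.08, adjusted p = 0.852). The difference between the effects of the sets was -0.41 (SE 0.09, adjusted p = 0.0344) and was called. That call was lost when any of 9 arrays was left out (AF84, AF85, AF86, AF90, AF91, AF118, AF119, AF120 or AF123), with adjusted p of up to 0.0861 and values between -0.41 and -0.36. In naïve pups Jchain was lower in at-risk pups by -0.31 (SE 0.09, adjusted p = 0.134).

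**Figure D3:**
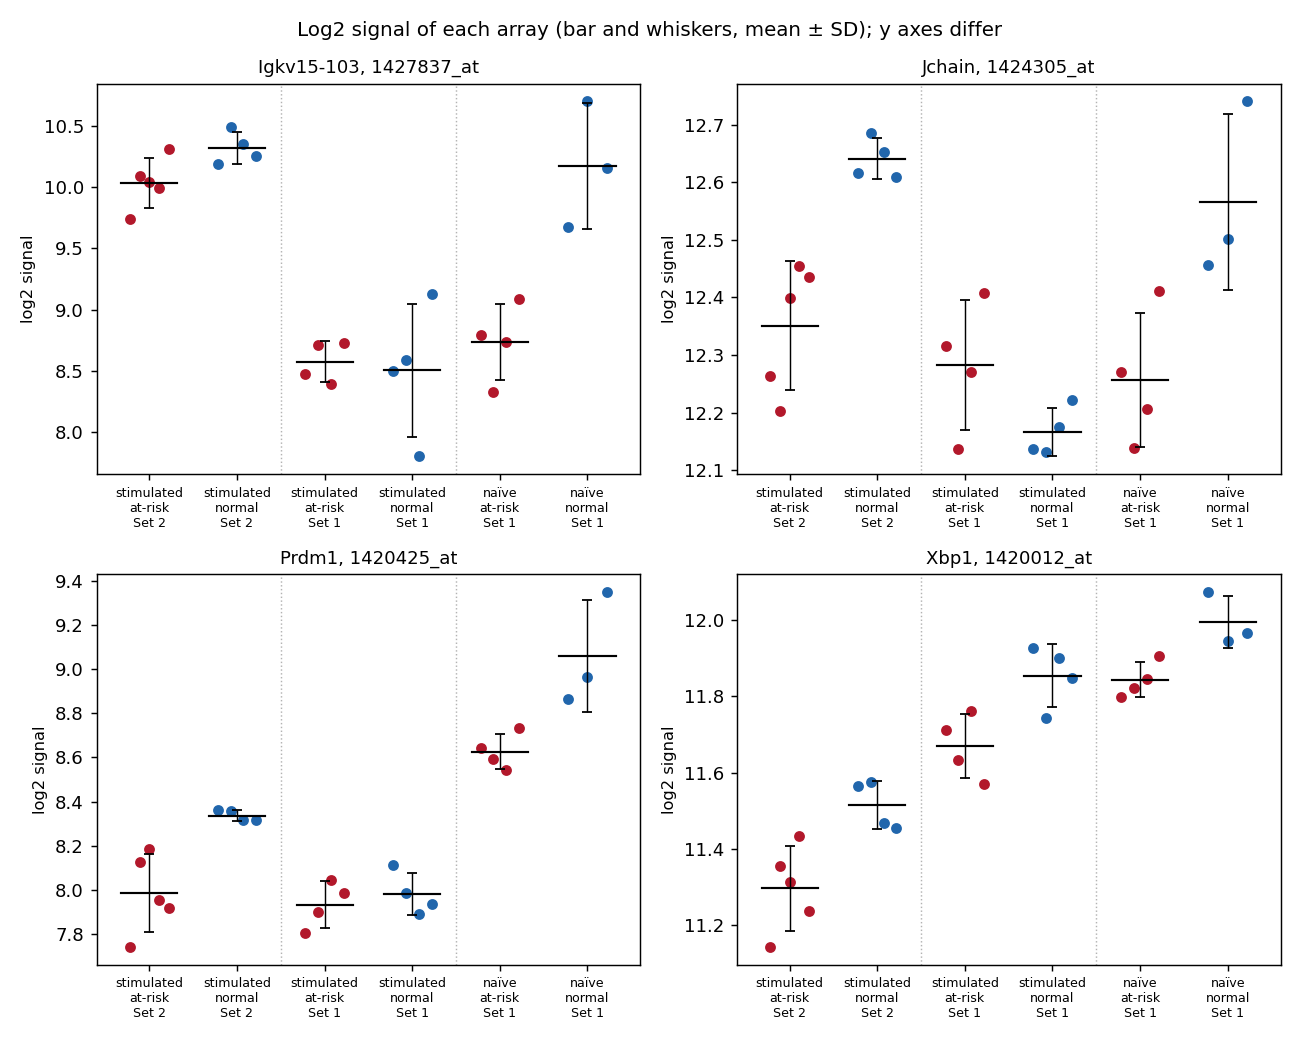
Log2 signal (y axis, scaled per panel) of Igkv15-103, Jchain, Prdm1 and Xbp1 on each array, by group along the x axis, with a bar and whiskers for the mean ± SD. At-risk arrays are red and normal arrays blue. Naïve normal arrays are high for Igkv15-103, Jchain and Prdm1, while Prdm1 lies between 7.80 and 8.11 in both stimulated groups of Set 1.

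Xbp1 was slightly lower in at-risk pups on most of its probe sets, always under the fold threshold or short of the adjusted threshold. On 1420012_at, its brightest probe set, the stimulated at-risk arrays of Set 2 read 11.14, 11.36, 11.31, 11.44 and 11.24, against 11.57, 11.57, 11.47 and 11.46 on the normal arrays. The groups were separate by a small margin, where 10.1% of all probe sets were separate. In Set 1 it read 11.71, 11.63, 11.76 and 11.57 in stimulated at-risk pups, against 11.93, 11.74, 11.90 and 11.85 in stimulated normal pups, and 1 at-risk array lay inside the normal range. Naïve at-risk arrays read 11.80, 11.82, 11.85 and 11.91, all below the naïve normal arrays at 12.07, 11.95 and 11.97. Over both sets the log2 fold change was -0.20 (SE 0.05, adjusted p = 0.0296), a 1.15-fold difference that is under the fold threshold. The sets gave -0.22 (Set 2) and -0.19 (Set 1), and the difference between them was -0.03 (interval -0.23 to 0.17). The other 3 probe sets of Xbp1 gave -0.23, -0.18 and -0.24 over both sets, at adjusted p of 0.0704, 0.299 and 0.0862. Probe set 1420886_a_at read 10.34 on AF123 of the stimulated at-risk pups of Set 2, where the other arrays of the group read 10.77 to 11.05 on it, and AF123 was also the lowest of the group on 1420012_at.

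Sdc1, Pou2af1 and Tnfrsf17 passed the threshold in no comparison. Of the 4 Sdc1 probe sets, 1415943_at was the brightest, at 9.07 to 9.46 over Set 1 and 9.87 to 10.17 over Set 2, with a log2 fold change of 0.07 in Set 2 (interval -0.10 to 0.24) and -0.15 in stimulated pups of Set 1 (interval -0.33 to 0.04). The other Sdc1 probe sets did not move together in naïve at-risk over normal pups, where 1415944_at was at 0.26 and 1437279_x_at at -0.21. In stimulated pups of Set 1, 1415944_at, 1437279_x_at and 1448158_at were at -0.13, -0.27 and -0.04, all lower. There the at-risk arrays of 1437279_x_at were all below the normal arrays, where 6.23% of all probe sets were separate. Pou2af1 was bright, at 11.02 to 11.65, and its largest difference between groups was 0.16, in stimulated at-risk over normal pups of Set 1 (SE 0.07, adjusted p = 0.575). There its at-risk arrays read 11.37, 11.20, 11.22 and 11.29, all above the normal arrays at 11.16, 11.09, 11.02 and 11.16. Of all probe sets, 6.23% were separate in that comparison. In Set 2 the at-risk arrays (11.41 to 11.65) and the normal arrays (11.36 to 11.50) overlapped. Tnfrsf17 was dim, at 5.31 to 6.78, not far above the lower quartile of an array (4.99 to 5.09), and its log2 fold changes lay between -0.26 and 0.27 in the 6 comparisons of groups. Its stimulated arrays of Set 1 read 5.90, 6.10, 5.79 and 5.58 in at-risk pups and 5.65, 5.31, 5.49 and 5.87 in normal pups, which overlap. The interval of that difference was -0.04 to 0.57, which includes no change.

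The machinery of secretion was nearly level across groups. Of 58 listed genes of the secretory pathway and Xbp1 targets, 54 were measured, and none was called at-risk over normal in Set 2, in Set 1, over both sets or in naïve pups. Stimulated over naïve in normal pups, the disulphide isomerase Pdia5 rose by 0.55 (SE 0.07, adjusted p = 8.53e-05), while the chaperone Dnajb9 fell by 0.44 and Herpud1, of the degradation pathway of the endoplasmic reticulum, fell by 0.39 (adjusted p = 0.00116 and 0.00178). These were the only calls, 1 higher and 2 lower of the 54, where 11.5% of all probe sets were called. In at-risk pups none of the 54 was called, beside 7.88% of all probe sets. The median of the list was 0.03 in normal pups.

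Of 25 further genes linked to plasma cells and their survival niches, 6 were called lower with allergen in at-risk pups and 9 in normal pups, and none higher. Of all probe sets, 7.88% and 11.5% were called there in either direction. The TNF receptor family member Cd27 was at -1.42 in both, Zbtb20 at -0.87 and -0.73, and Cd28 is also on the T cell list. Il6, a cytokine that sustains plasma cells, fell in stimulated over naïve normal pups (-1.30, SE 0.13, adjusted p = 1.08e-05) and in naïve at-risk over normal pups (-1.18, SE 0.13, adjusted p = 0.000786). Stimulated minus naïve, its maternal effect differed by 1.10 (adjusted p = 0.0402). In Set 2, where 4.62% of all probe sets were called, 3 of 25 were called higher in at-risk pups. They were the BAFF receptor Tnfrsf13c (0.54, adjusted p = 0.0108), the niche chemokine Cxcl12 (1.81, adjusted p = 0.00416) and Slamf7 (0.35, adjusted p = 0.0241). There 4 were called lower, namely Cd28 (-1.15, adjusted p = 0.000431), Cd27 (-0.84), and the chemokine receptors Ccr9 (-0.49) and Cxcr4 (-0.46).

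Among 15 measured genes of IgA class switching and transport, Pigr rose with allergen by 0.47 in at-risk pups (adjusted p = 0.00481) and 0.58 in normal pups (adjusted p = 0.00154). Cxcl13, the chemokine that draws B cells into follicles, fell in the same comparisons (-1.18 and -2.58), as did Il10 (-0.71 and -1.46). In Set 2 only Tgfbr1, a receptor chain of the switch factor TGF-β, was called, lower at -0.54 (adjusted p = 0.00323).

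B cell genes went the other way from Igha in Set 2, where 4.62% of all probe sets were called. Of 21 measured, 7 were called higher in stimulated at-risk over normal pups and none lower, with Fcer2a (CD23) at 0.83 and Cxcr5 at 0.79, and their mean log2 signal was 10.80 to 10.99 in at-risk pups and 10.57 to 10.65 in normal pups. In Set 1 none of the 21 was called between the stimulated groups. Plasmacytoid DC genes were called lower in Set 2, 6 of 10 measured, with Klk1 at -0.66 and Tcf4 at -0.47, and their mean was 10.71 to 10.95 in at-risk pups and 11.19 to 11.31 in normal pups. T cell (7 of 10), NK cell (7 of 8), macrophage (4 of 14, with Cd5l at -0.56) and neutrophil genes (2 of 13) were also called lower there, and platelet (10 of 12), endothelial (8 of 13) and erythroid genes (3 of 11) higher. The part of these populations in the values of Igha, Jchain and Prdm1 in Set 2 was not tested.

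Other immunoglobulin probe sets show how unevenly antibody transcripts were spread. There were 38 of them for 18 symbols. In Set 2, where 4.62% of all probe sets were called, 5 of the 38 were called lower and 3 higher in stimulated at-risk over normal pups. The 5 lower were all annotated to Ighm, the heavy chain of IgM. Probe set 1425247_a_at read 5.83, 6.14, 4.52, 4.36 and 4.57 in stimulated at-risk pups, against 7.48, 7.80, 7.91 and 8.02 in stimulated normal pups, a difference of -2.72 log2 units (SE 0.37, adjusted p = 0.00266). The values of 4.52, 4.36 and 4.57 lie below the lower quartile of an array (4.99 to 5.09). The size of the difference thus rests on values near the dim end of the scale. The Ighm probe set 1427351_s_at, in contrast, read 13.82 to 13.97 and 13.76 to 13.95, and was not called. Probe sets annotated to Ighm thus disagreed, and which transcripts the 5 read cannot be told from the annotation.

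Array AF79, from naïve normal pups, carried a signal of 12.49 on 1425247_a_at, where the other naïve arrays read 5.33 to 5.84. The same array was at 11.72 on the Ighm probe set 1427756_x_at, where the other naïve arrays read 4.88 to 5.57, and at 10.22 on the Ighg3 probe set 1427503_at, where they read 7.53 to 8.24. Kappa segments varied from array to array within groups: Igkv6-14 read 12.40 on AF125 of the stimulated at-risk pups of Set 2 and 10.45 to 10.93 on the other 4. Its 4 normal arrays of Set 2 read 11.43 to 11.70. In Set 1 Igkv6-14 read 9.50, 9.26, 11.01 and 12.28 on the stimulated at-risk arrays AF88 to AF91. It was thus higher on AF90 and AF91, the arrays of that group on which Igha was also high. The stimulated normal arrays AF84 to AF87 read 8.82, 10.68, 8.94 and 9.15, with Igha low on all of them. A link between Igha and Igkv6-14 was not tested. Ighv14-2 was the 1 immunoglobulin probe set called higher in stimulated at-risk pups over both sets (0.37, SE 0.08, adjusted p = 0.02). It was also among the 3 called higher in Set 2 (0.60, SE 0.08, adjusted p = 0.00334). In Set 2 its at-risk arrays read 12.26, 12.48, 12.11, 12.36 and 12.36, all above the normal arrays at 11.58, 11.72, 11.77 and 11.81.

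**Figure D4:**
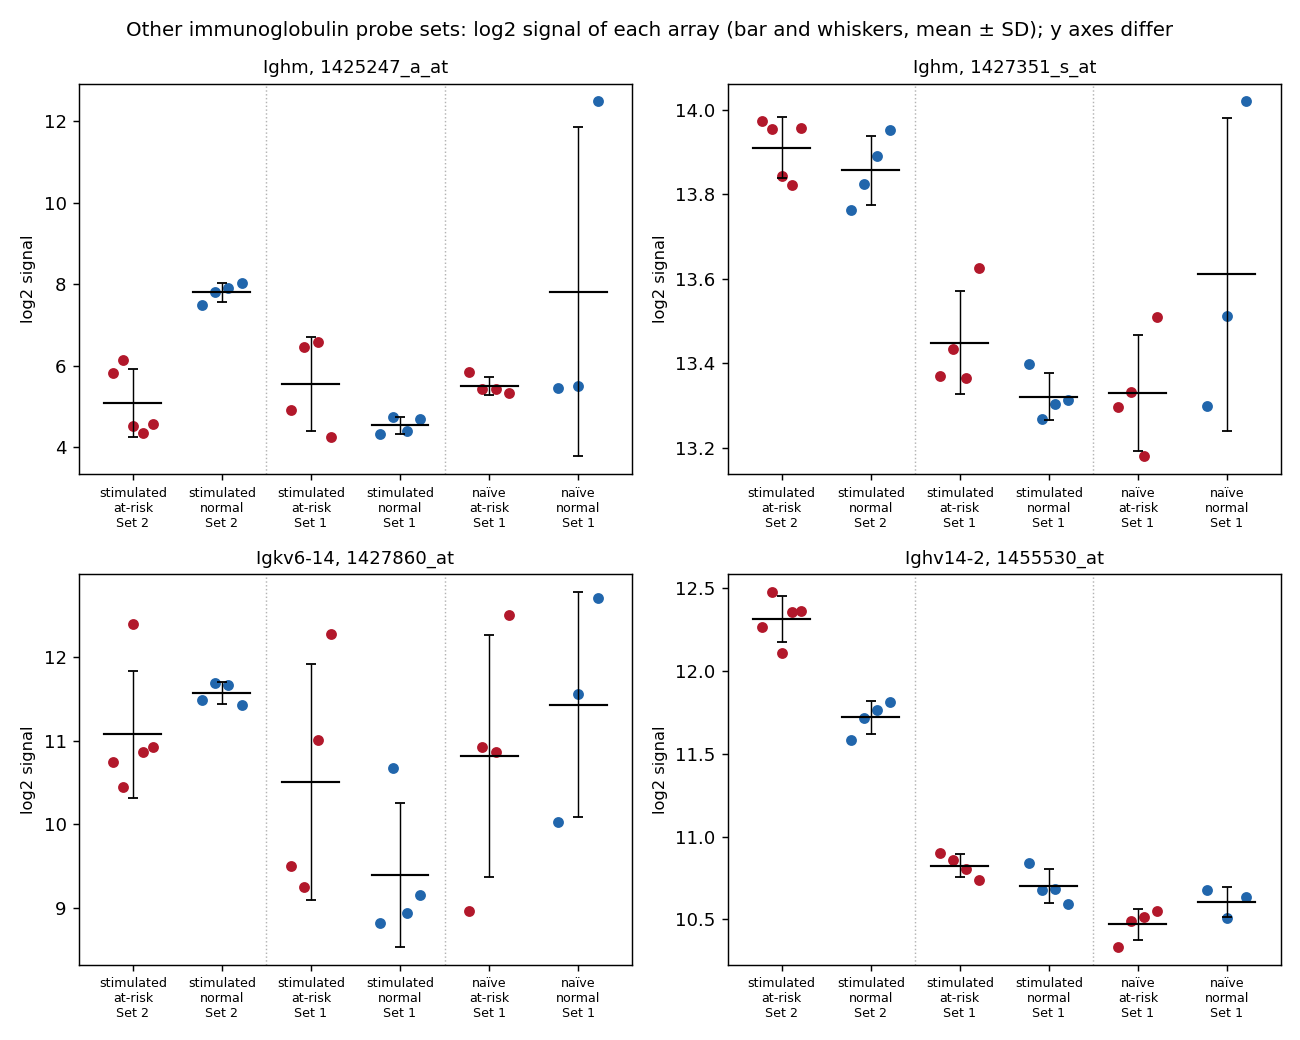
Log2 signal (y axis, scaled per panel) of 2 Ighm probe sets, Igkv6-14 and Ighv14-2 on each array, by group along the x axis, with a bar and whiskers for the mean ± SD. At-risk arrays are red and normal arrays blue. Ighm 1425247_a_at shows AF79 at 12.49 and separate groups in Set 2, whereas 1427351_s_at stays between 13.18 and 14.02.

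Over the 24 arrays, with each set centred on its own mean, the members did not vary as 1 block. Pearson's r between Prdm1 and Igha was 0.73, between Prdm1 and Igkv15-103 0.74 and between Prdm1 and Jchain 0.69, whereas Igha and Jchain gave 0.57 and Igha and Igkv15-103 0.41. Sdc1, Pou2af1 and Tnfrsf17 had r between -0.16 and 0.01 with Igha. The genes outside the members most like Igha were Slfn1, Asprv1, Klra17, Ctsb and Lag3, with r of 0.88 to 0.89, and none of them is an immunoglobulin gene. Those most like Igkv15-103 were Il6 (0.86), Spry2, Socs2, Cxcl10 and Skil, and those most like Jchain were Lgals3 (0.84), Med26, Socs2, Cd164 and Dap. These correlations describe arrays that share groups and normalisation, and the group differences above are part of them.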

How the data were processed

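Total RNA of splenic CD11c+ DCs was hybridised to 24 arrays. The authors deposited linear RMA intensity values (quantile normalisation and median polish, each array set on its own, 1 array per set excluded after principal component analysis). The methods name a RefSeq-based probe definition, whereas the rows carry Affymetrix probe set IDs. From the deposited intensity, log2 values were taken with no pseudocount. Of 22690 probe sets, 64 controls were left out, and 20380 of the rest carried 1 symbol in the platform annotation, 691 several and 1555 none. limma 3.58.1 in R 4.3.3 fitted group means over the 15 arrays of Set 1, the 9 of Set 2, or the 17 stimulated arrays (set as a term, or 4 group means for the difference between sets). A call needed a Benjamini-Hochberg adjusted p of at most 0.05 and a fold of at least 1.25. The fits were tested on simulated data. Detection calls were not used, and the number of arrays limits the precision. The members and gene lists were chosen with earlier results of these data known. Named genes were all members, up to 4 called genes per list and direction with the smallest adjusted p, other immunoglobulin probe sets, and the 5 genes most like Igha, Igkv15-103 and Jchain. Further lists (conventional DC, neutrophil) were read as markers. At-risk over normal, 1 of 18 conventional DC genes was called in Set 2 (Itgae, higher), and 3 of 13 neutrophil genes were called higher in stimulated pups of Set 1. Alternatives changed the arrays fitted, the normalisation, the dim filter, the fold threshold, the spread model, array weights, the probe set of a gene, the set term and each array in turn.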

Additional observations from a re-analysis of the deposited data

Results flagged for a closer look

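The fit of the difference between the sets, Set 2 minus Set 1, picked out Jchain at -0.41 for the maternal effect in stimulated pups (adjusted p = 0.0344). That call held in 8 of the 17 fits that left out 1 array. The 3 Igha probe sets gave -3.68, -3.56 and -2.45 on 1421653_a_at, 1425763_x_at and 1429381_x_at. In Set 2 the at-risk arrays were below the normal arrays for both genes, while in Set 1 the stimulated at-risk mean was higher for both. Igha was taken as chosen from these arrays, so its values are a description with no test, and they ran from -4.39 to -3.15 on 1421653_a_at with each array left out. NuGEN amplification, separate normalisation and whatever else distinguishes the sets cannot be told apart.

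A single array stood far from its group in 3 of the 80 combinations of member probe set and group with 4 or 5 arrays, where chance flags about 1 in 20 groups. Sdc1 on 1415944_at read 7.03 on AF86, against 7.29 to 7.31 on the other stimulated normal arrays of Set 1. Igha on 1429381_x_at read 7.33 on AF85, against 7.70 to 7.77 in the same group. Xbp1 on 1420886_a_at read 11.22 on AF89, against 11.32 on each of the other stimulated at-risk arrays of Set 1.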

How the results depend on the processing

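No alternative reversed a called value. The counts and medians here include Igha and Igkv15-103, which make up the single call in naïve pups and all 3 in Set 2, so they describe how the fits behave and support nothing about those genes. The median of the member genes moved by less than the spread between arrays under all 70 alternatives and every fit that left out 1 array. Whether it kept its sign was not part of that check. The count of member probe sets called at-risk over normal in naïve pups was 1, and was 0 with only the compared groups in the fit and 0 to 2 with each array left out. Over both sets of stimulated pups it was 0, and 1 with no fold threshold (Xbp1). In Set 2 it was 3, and 5 in a fit of all 24 arrays and with array weights. Stimulated over naïve in at-risk pups it was 1, and 3 in a fit of all 24 arrays, 2 with array weights, and 1 to 4 with each array left out (3 without AF90, 4 without AF91). For the difference between sets it was 4, and 7 with array weights, 2 with 1 probe set a gene, and 2 to 4 with each array left out. The fall of Prdm1 with allergen passed under all 9 alternatives and all 15 fits without 1 array, at -0.72 to -0.69 and -0.73 to -0.65 in at-risk pups and at -1.11 to -0.98 and -1.18 to -0.94 in normal pups. In Set 2 the adjusted p of Prdm1 passed after repeated quantile normalisation (adjusted p = 0.0361) and median centring (0.0369), with all 24 arrays (0.0153), array weights (0.00711) and 1 probe set a gene (0.0389), but not with trend and robust (0.0788). With the dim filter Tnfrsf17 dropped out and gave no value. No paired analysis was possible because the array numbers are unique to 1 group each. The causes of these shifts were not tested, other than the smaller number of arrays or genes that an alternative itself sets.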
